A study of Mus musculus with 36 samples.

Results

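The comparison set out here is the late state of direct cardiac reprogramming against its fibroblast control, as open chromatin. It takes 6 of the 36 samples in the labels, taken by their labels: 3 libraries of mouse cells infected with Gata4, Mef2c and Tbx5 (GMT) and kept with the inhibitors sb431542 and xav939 until day 21, and 3 libraries of fibroblasts infected with dsRed alone. Of 1393120 regions in the deposited table, the 144810 that passed a filter on low counts were tested, and they are called peaks below. The table as held covers chromosomes 1, 10 to 16 and, up to 79.1 Mb, 17, so every count is over that part of the genome. Accessibility was read by ATAC-seq, in which a transposase cuts and tags DNA that is not packed away, so that the number of reads over a region rises with how open it is.

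Mice of strain Cd-1, genotype alpha-MHC-GFP, were the source of the day 21 cells; the reporter is a green fluorescent protein under a cardiac myosin promoter. Explants of neonatal hearts gave Thy1-positive, reporter-negative cells, largely fibroblasts, which received the 3 factors by retrovirus and were sorted for GFP at day 21. The fibroblasts had the same strain, reporter and explant origin, carried a dsRed retrovirus, were kept without inhibitors and were collected as dsRed-positive cells at day 7. The labels call the 3 replicates of each group biological and name a pair of sequencing cores, but not the core of each library. Factors, inhibitors, sort and time in culture therefore all differ between the 2 groups and cannot be told apart here. In sorted bulk cells, a region open in part of the cells and one less open in every cell also cannot be told apart.

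Gata4 is a zinc-finger protein, Mef2c a MADS-box protein and Tbx5 a T-box protein, and all are transcription factors of heart development that bind at enhancers of cardiac genes. Given together they turn on cardiac genes in a part of fibroblasts, which are the matrix-producing cells of the heart. TGF-beta signalling, the target of sb431542, favours the fibroblast and myofibroblast state, and xav939 stabilises axin and so damps Wnt signalling; blocking both raises the yield of induced cardiomyocytes in mouse cells. An opened region is often an enhancer or promoter in use, and a closed one has often lost the factors that kept it clear. Peaks are given by position in build mm9, with start and end as in the deposited table. No annotation or sequence of that build was used here, so no gene is assigned to a peak and the labelled cell types were not checked against marker genes.

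Library totals were 7.55, 5.16 and 21.4 M counts at day 21 and 17.3, 6.77 and 2.34 M in fibroblasts, for replicates 1, 2 and 3. One region, at 24618407 to 24622986 on chromosome 1, took 5.35, 6.4 and 20.8% of these counts at day 21 and 49.4, 49.3 and 14.5% in fibroblasts. Levels are therefore CPM, counts per M of an effective library size (M, as for the totals, in counts), which edgeR set by the trimmed mean of M-values (TMM). On that scale the region had 45000, 50800 and 213000 CPM at day 21 and 781000, 772000 and 123000 CPM in fibroblasts (log2 fold change -2.44 with SE 0.80, edgeR adjusted p 0.0193), and the groups overlapped. By chi-square per degree of freedom, fibroblast replicates 1 and 2 were close to each other (1.38) and far from replicate 3 (33.9 and 24.3). At day 21 the order by this measure was the same, with 2.15 for replicates 1 and 2 and 9.59 and 8.52 against replicate 3. This chi-square scales libraries by raw counts that include the single region. Its values therefore also carry the differing shares of that region and do not measure the other peaks alone. The SD of the log2 difference between libraries set fibroblasts less far apart, at 0.734 for replicates 1 and 2 and 0.947 and 1.04 against replicate 3. Fibroblast replicate 3 is also the shallowest of these libraries, at 2.34 M counts, and what depth adds to this SD was not tested. At day 21 the SD was 0.675 for replicates 1 and 2 and 0.56 and 0.636 against replicate 3, so replicate 3 did not stand apart by it. Counts do not show whether fibroblast replicates 1 and 2 were separate cultures, so the fibroblast n may be 2; with both summed as 1 library, 16166 peaks were higher and 11807 lower at day 21. Without the single region, tested peaks held 70.8, 70.2 and 75.7% of counts at day 21 and 64.2, 65.2 and 71.1% in fibroblasts.

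At day 21, 19209 of 144810 peaks were more open than in fibroblasts and 14614 were less open. This is 13.3% and 10.1% of the peaks tested, 23.4% in all (edgeR's quasi-likelihood test, two-sided, Benjamini-Hochberg adjusted p under 0.05). The higher peaks had a median log2 fold change of 1.76 (quartiles 1.34 and 2.30) and the lower ones of -1.56 (quartiles -1.97 and -1.25), against 0.0473 over all peaks tested. Among these calls rises were the larger ones: 7136 higher and 3490 lower peaks changed at least 4-fold, and 392 and 36 at least 16-fold. The filter draws mostly on GMT libraries, so it admits peaks near 0 in fibroblasts more readily than peaks near 0 at day 21. These fold classes were not counted under other settings. All 3 day 21 libraries lay above all 3 fibroblast libraries in 18166 of the higher peaks, and all 3 lay below in 13570 of the lower ones. Over every peak tested the groups were apart in this way for 21.9% and 17.3%.

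The changed peaks made up a sizeable part of the open chromatin read. With the single region left out, peaks called higher held 21.8, 22.0 and 22.5% of the counts in tested peaks of the 3 day 21 libraries and 7.90, 7.89 and 7.89% in the 3 fibroblast libraries. Peaks called lower held 5.16, 5.63 and 4.86% at day 21 and 15.5, 15.4 and 17.5% in fibroblasts. These shares describe the calls and are no test of them, since the same counts made the calls. In each library between 72.3 and 76.7% of the counts lay in peaks that were not called.

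The number of calls and their split depend on a few choices. Without fibroblast replicate 1 the higher and lower counts were 12466 and 9677, and without day 21 replicate 3 the lower count was 9701. Higher peaks made up 56.8% of calls with TMM, 88.8% with library totals alone, which count the single region and moved the median of all peaks to 0.66 on the log2 scale, and 87.7% with no filter on low counts. They made up 48.7% with limma's voom, which turned the balance (16772 higher and 17695 lower), and 50.3% with a normalization fitted over the level. They made up 51.4% when peaks averaging a log2 CPM of 1 or more were scaled anew and fitted alone. With the main scaling, rises were 58.0, 71.4 and 83.3% of calls at an average log2 CPM of 1 to 2, 2 to 3 and 3 or more. Which direction is the more frequent is therefore not settled.

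The 10 largest fold rises were near or at nothing in fibroblasts. They are named R1 to R10 in order of fitted fold change, and come from the 14201 higher peaks that had an average log2 CPM of at least 1 and groups that did not overlap, with 1 peak taken per 100 kb window. Peak R1, at 163043787 to 163045464 on chromosome 1, had 2.34, 2.92 and 3.22 CPM in the day 21 libraries and no count in any fibroblast library. Its level was at least 17.7-fold higher, against a floor of 3 counts over the 3 fibroblast libraries together. R2 to R4 and R7 were likewise without a count in fibroblasts. R2, at 57780029 to 57780707 on chromosome 11, had 2.79, 3.39 and 1.68 CPM at day 21, at least 13.6-fold higher. R3, at 62508227 to 62509271 on chromosome 14, had 2.79, 0.769 and 2.40 CPM, at least 13.3-fold higher. Replicate 2 was the lowest of the day 21 libraries there, though still above fibroblasts. R4, at 54332748 to 54333168 on chromosome 11, is only 420 bases wide and had 2.01, 2.62 and 1.82 CPM, at least 12.1-fold higher. R7, at 88476595 to 88477346 on chromosome 1, was the weakest, with 0.111, 1.38 and 0.816 CPM and a bound of 4.48-fold. The call of R7 rests on few counts: its adjusted p of 0.00217 became 0.0595 without fibroblast replicate 1 and 0.0542 with limma's voom.

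The remaining members of this list were open at day 21 and had 1 to 3 reads in all fibroblast libraries together. R5, at 8390481 to 8391254 on chromosome 12, had 15.9, 7.39 and 16 CPM at day 21 and 0.0912, 0.231 and 0 CPM in fibroblasts. From 524 and 2 reads, its pooled level was 130-fold higher (95% exact binomial interval 35.9 to 1080, counting error only). R6, at 29559699 to 29560736 on chromosome 17, had 10.7, 10.5 and 10.2 CPM at day 21 and 0.274, 0 and 0 CPM in fibroblasts, 62.4-fold higher (21.2 to 304). The 3 day 21 libraries were closest to each other, relative to their mean, at this peak of the list, with an SD of 0.263 CPM around 10.4. R9, at 99713938 to 99715325 on chromosome 15, had 11.1, 6.62 and 11 CPM at day 21 and 0.274, 0 and 0 CPM in fibroblasts, 61.7-fold higher (20.9 to 300). R8, at 62536238 to 62537792 on chromosome 11, had 2.01, 2.92 and 5.90 CPM, and R10, at 156983065 to 156983691 on chromosome 1, had 1.67, 2.77 and 5.71 CPM, each against a single read in fibroblast replicate 1. For both, replicate 3, the deepest day 21 library, was the highest. Adjusted p over these 5 peaks ran from 4.89e-13 to 1.35e-08 in edgeR. With so few fibroblast reads or none, every peak of the list could pass the filter only through GMT libraries. All were also picked as the largest rises among calls, so their p is no support of its own.

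Complete absence of reads in fibroblasts was rare. Of the peaks tested, 99 had no count in any fibroblast library, and 94 of these were called higher, a group that could pass the filter only through GMT libraries. Their pooled day 21 level had a median of 0.826 CPM (range 0.413 to 2.95), and their median width was 610 bases against 1608 for all higher peaks. No tested peak was without counts at day 21, in a table where the filter draws mostly on GMT libraries. Among peaks called higher, 45.7% stood under 1 CPM in fibroblasts, and among those called lower, 42.1% stood under 1 CPM at day 21. Over all peaks tested, 33.6% were under 1 CPM at day 21 and 32.1% in fibroblasts.

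The largest fold falls that could be named kept some reads at day 21. The cut at an average log2 CPM of 1 is over 18 libraries, 15 of them GMT, so it leaves out peaks near 0 in GMT cells, and larger falls, down to a log2 fold change of -5.46, lay under it. F1 to F10, the 10 largest among the 6649 lower peaks that met the same conditions, averaged 0.323 to 1.39 CPM at day 21 and 7.58 to 20.1 CPM in fibroblasts. F1, at 68959443 to 68960958 on chromosome 15, had 0.557, 0.462 and 0.480 CPM at day 21, against 9.12, 12.7 and 9.01 CPM in fibroblasts (log2 fold change -4.33, SE 0.41, adjusted p 1.70e-12). F2, at 45408145 to 45409956 on chromosome 1, had 0.780, 0.308 and 0.816 CPM at day 21, against 16.3, 15.7 and 8.65 CPM in fibroblasts (-4.30, SE 0.38). It did not stand alone: 13 of the 21 peaks tested in its 100 kb window were called lower and 0 higher.

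F3, at 59816216 to 59816690 on chromosome 10, is 474 bases wide, the narrowest of the list, and had 0.334, 0.154 and 0.480 CPM at day 21 and 6.57, 7.17 and 9.01 CPM in fibroblasts. F4, at 71657657 to 71658846 on chromosome 1, had 0.111, 0.769 and 0.864 CPM at day 21 and 13.5, 9.48 and 13.7 CPM in fibroblasts, in a window where 42 of 52 peaks were called lower. F6, at 13090609 to 13091791 on chromosome 17, had the highest fibroblast level of the list, with 1.67, 1.54 and 0.960 CPM at day 21 and 19.8, 28.0 and 12.6 CPM in fibroblasts. Its neighbours did not follow: of 21 peaks in that window, 2 were lower and 4 higher. F5 on chromosome 15 (46768173 to 46770079), F7 on chromosome 1 (190056634 to 190058335), F8 on chromosome 11 (28112585 to 28114344), F9 on chromosome 10 (5206034 to 5207524) and F10 on chromosome 1 (57879514 to 57880806) had log2 fold changes from -4.10 to -3.89. In all 5 the highest fibroblast library was replicate 3, the shallowest. Adjusted p over the 10 peaks was at most 2.83e-09 in edgeR, and under each of 20 alternative settings every one of them kept its direction and its call. They were picked as the largest falls among calls on the same counts, so neither the p nor the kept calls are support of their own.

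**Figure D1:**
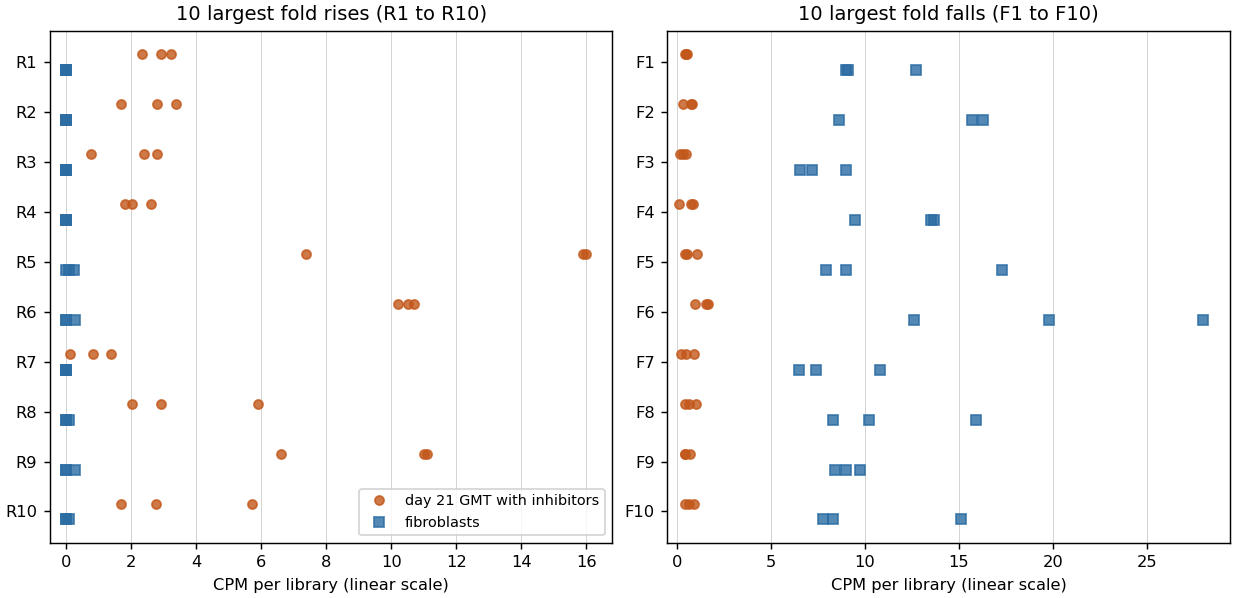
Level of each of the 20 peaks with the largest fold changes, as CPM in each library (points, linear axis), with day 21 GMT cells as circles and fibroblasts as squares. Fibroblasts sit at or near 0 at every R peak, while day 21 cells keep 0.323 to 1.39 CPM on average at the F peaks, where fibroblast libraries spread widely.

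Ranked by the size of the level change instead, other peaks led, most of them wide. These are G1 to G5 for gains and L1 to L5 for losses in mean CPM. G1, at 55584482 to 55587987 on chromosome 14, stood far above the rest with 228, 161 and 277 CPM in the day 21 libraries, against 13.2, 14.3 and 10.1 CPM in fibroblasts (log2 fold change 4.13 with SE 0.42, edgeR adjusted p 9.24e-12). Groups that did not overlap were a condition for every peak of these lists, so that separation follows from the choice and is no test. G2, at 54692638 to 54695204 on chromosome 11, had 69.9, 55.7 and 82.0 CPM at day 21 and 9.21, 10.2 and 13.0 CPM in fibroblasts (2.71, SE 0.35). G4, at 99327375 to 99331178 on chromosome 15, had 71.3, 51.9 and 64.6 CPM at day 21 and 8.21, 5.55 and 8.65 CPM in fibroblasts (3.07, SE 0.38). G5, at 137730518 to 137733557 on chromosome 1, had 61.6, 55.5 and 80.2 CPM at day 21 and 13.9, 12.5 and 6.85 CPM in fibroblasts (2.53, SE 0.34). It lies in a window in which 28 of 39 tested peaks were called higher and 0 lower.

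G3 is of another kind, a peak of 5715 bases at 51940165 to 51945880 on chromosome 13 that was open in both cell states. It had 113, 119 and 129 CPM at day 21 and 56.9, 64.1 and 68.1 CPM in fibroblasts, with a log2 fold change of 0.93 (SE 0.34). Its adjusted p of 0.036 missed the threshold in 12 of 20 alternatives, including without any 1 of the 6 libraries (0.0538 to 0.154). The call was thus lost in most settings, and groups that did not overlap were a condition of the list.

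Among the losses, L2 had the largest fold. It spans 6023 bases at 71625818 to 71631841 on chromosome 1 and had 6.24, 4.92 and 6.34 CPM at day 21, against 75.8, 81.2 and 86.5 CPM in fibroblasts (log2 fold change -3.78 with SE 0.34, edgeR adjusted p 3.25e-13). L1, at 174429790 to 174434030 on the same chromosome, was the most open of the 5 in fibroblasts, with 38.5, 44.0 and 47.1 CPM at day 21 and 140, 149 and 128 CPM in fibroblasts (-1.68, SE 0.36). Its call was lost with no filter on low counts (adjusted p 0.291) and against a fold of 2 (0.0916). L3 and L5, at 175841946 to 175844187 and 175696298 to 175698183, lie near each other on the same chromosome. L3 had 13.6, 20.3 and 20.8 CPM at day 21 and 72.4, 70.3 and 86.5 CPM in fibroblasts, and L5 had 9.03, 13.1 and 17.5 CPM at day 21 and 71.7, 55.8 and 66.7 CPM in fibroblasts. L4, at 86393615 to 86396673 on chromosome 11, had 30.4, 66.3 and 42.8 CPM at day 21 and 89.0, 90.9 and 129 CPM in fibroblasts (-1.15, SE 0.37, adjusted p 0.0167). Day 21 replicate 2 stood close to the fibroblasts there, and the call of L4 was lost in 8 of 20 alternatives, among them without fibroblast replicate 3 (adjusted p 0.0963) and without day 21 replicate 1 (0.126) or 3 (0.0759).

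Few of the calls reached high levels. A pooled level of at least 50 CPM was reached at day 21 by 105 of the peaks called higher, and in fibroblasts by 22 of the peaks called lower. Over all peaks tested, 1272 reached it at day 21 and 594 in fibroblasts, so high levels were uneven also without regard to calls. At 10 CPM the counts were 3521 and 1815 among calls and 11273 and 9404 over all peaks tested.

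**Figure D2:**
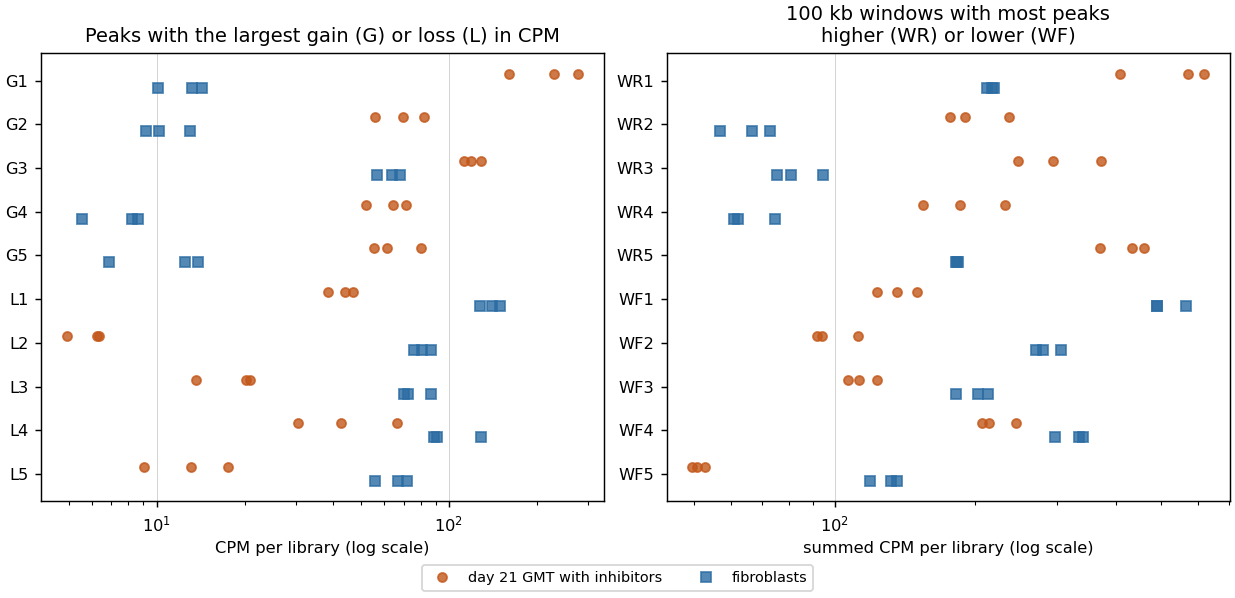
Left, CPM in each library of the peaks with the largest gain (G1 to G5) or loss (L1 to L5) in level; right, summed CPM in each library of the 100 kb windows that hold most peaks called higher (WR1 to WR5) or lower (WF1 to WF5), both on log axes with day 21 GMT cells as circles and fibroblasts as squares. The 2 groups do not overlap in any row, which for the peaks was a condition of their choice, with the narrowest gaps at L4 and WF4.

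Changes were then tested over windows of 100 kb, in which the counts of all regions were summed, whether tested as peaks or not. Of 10668 windows, 1427 were higher at day 21 (13.4%) and 2262 were lower (21.2%), 34.6% in all. The changes were smaller than for single peaks, with median log2 fold changes of 0.57 and -0.58, and 87 windows rose and 30 fell at least 2-fold. The median over all windows was -0.14, below the value for peaks. With TMM factors of the windows themselves that median was -0.02, and 1947 windows were higher and 1822 lower, so that rises were 51.7% of calls against 38.7%. With library totals alone 2884 were higher and 13 lower, 99.6% rises, around a median of 0.40. With the scaling of the peaks but only tested peaks summed, 1768 windows were higher and 1841 lower, 49% rises, around a median of -0.03. The balance of rises and falls over windows therefore depends on the scaling and on which regions are summed. Counts also moved by over 1.5 times with single libraries: they were 693 higher and 668 lower without fibroblast replicate 1, 949 and 1075 without fibroblast replicate 2, 671 and 736 without day 21 replicate 3, and 935 windows were higher without day 21 replicate 1.

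The windows with most opened peaks were on chromosomes 13 and 14. WR1, from 35300001 to 35400000 on chromosome 14, held 35 peaks called higher of 53 tested and 0 lower, with sums of 409, 573 and 619 CPM at day 21 and 220, 217 and 212 CPM in fibroblasts (log2 fold change 1.30 with SE 0.30, edgeR adjusted p 0.00266). WR2 to WR4 are windows of one stretch of chromosome 13, starting at 12000001, 12100001 and 11800001, with 34 of 52, 32 of 44 and 30 of 45 peaks higher and 0 lower in each. WR3 gained most, with 247, 294 and 372 CPM at day 21 and 94.6, 80.5 and 75.3 CPM in fibroblasts (1.86, SE 0.24). WR2 had 190, 177 and 236 CPM at day 21 and 72.7, 66.6 and 56.9 CPM in fibroblasts, and WR4 had 186, 155 and 232 CPM at day 21 and 74.5, 62.0 and 60.9 CPM in fibroblasts. The groups were well apart in all 3 windows. WR5, from 63800001 on chromosome 14, had 30 of 49 peaks higher and 1 lower, with 434, 370 and 460 CPM at day 21 and 184, 183 and 182 CPM in fibroblasts. Its adjusted p of 0.0111 became 0.0513 without fibroblast replicate 1 and 0.0505 without day 21 replicate 3.

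The windows with most closed peaks were led by WF1, from 71600001 to 71700000 on chromosome 1, which contains L2 and F4. Of its 52 peaks, 42 were called lower and 1 higher, and the window sum was 136, 123 and 150 CPM at day 21, against 492, 492 and 567 CPM in fibroblasts (log2 fold change -1.92 with SE 0.22, edgeR adjusted p 2.80e-06). WF2, from 85800001 on chromosome 10, had 20 of 28 peaks lower and 1 higher, with 94.0, 91.6 and 112 CPM at day 21 and 305, 270 and 279 CPM in fibroblasts (-1.52, SE 0.13). WF5, from 110800001 on chromosome 12, had 15 of 22 lower and 0 higher, with 52.8, 49.5 and 50.7 CPM at day 21 and 136, 132 and 119 CPM in fibroblasts (-1.34, SE 0.12). In each of the 3 windows every day 21 library stood far below every fibroblast library.

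WF3, from 45700001 on chromosome 16, had 20 of 39 peaks lower and 1 higher, with 113, 107 and 123 CPM at day 21 and 203, 182 and 213 CPM in fibroblasts (-0.80, SE 0.15). WF4, from 117100001 on chromosome 10, had 18 of 32 lower and 0 higher but a small fall in its sum, with 207, 214 and 245 CPM at day 21 and 334, 297 and 340 CPM in fibroblasts (-0.54, SE 0.19, adjusted p 0.0291). The call of WF4 was lost in 7 of 11 alternatives, with a log2 fold change of -0.09 for library totals alone, under which the median window stood at 0.40. Among the alternatives, WF3 lost its call under that scaling only (-0.35, adjusted p 0.413).

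Peaks that changed in the same direction tended to lie side by side. Among tested peaks within 10 kb of a peak called higher, 25.8% were themselves higher and 6.07% lower. Beside a peak called lower, 18.4% were lower and 8.68% higher, and beside an uncalled peak 12.7% were higher and 9.49% lower. No test was made of this, since neighbours can share reads of one wide open region. Unbroken runs of 5 or more tested peaks called in the same direction numbered 127 for rises, with 816 peaks, and 40 for falls, with 286 peaks.

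The longest run of falls took in 33 peaks over 51349 bases of chromosome 1, from 71625818 to 71677167 inside WF1. Its peaks had log2 fold changes from -5.24 to -1.39, and their sum was 38.3, 37.7 and 36.6 CPM at day 21, against 335, 319 and 384 CPM in fibroblasts. The day 21 libraries hardly differed from each other over this stretch. The next runs of falls were both on chromosome 10, with 13 peaks from 85803917 to 85829394 and 12 peaks from 85777422 to 85800643 on neighbouring stretches. Their sums were 13.9, 24.0 and 20.0 CPM at day 21 and 157, 123 and 130 CPM in fibroblasts for the first, and 25.5, 45.4 and 38.2 CPM at day 21 and 106, 115 and 105 CPM in fibroblasts for the second. Runs of 12 and 11 peaks followed on chromosome 16 from 65848644 and on chromosome 17 from 73298615, with mean sums of 22.2 ± 5.02 and 33.8 ± 4.96 CPM at day 21 and 71.8 ± 6.25 and 102 ± 4.62 CPM in fibroblasts (SD, n = 3).

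The longest run of rises took in 25 peaks over 33990 bases of chromosome 1, from 137730518, where G5 lies, to 137764508. Its sum was 202, 319 and 419 CPM at day 21 and 57.2, 61.1 and 53.7 CPM in fibroblasts, so the day 21 libraries spread widely while all stood above the fibroblast libraries. A run of 19 peaks on chromosome 15 from 57999654 to 58047328 had 150, 107 and 144 CPM at day 21 and 40.2, 45.3 and 49.0 CPM in fibroblasts. A run of 16 peaks on chromosome 13 from 46592631 to 46659658 had 105, 121 and 146 CPM at day 21 and 21.9, 27.3 and 18 CPM in fibroblasts. The median log2 fold change over the peaks of a run was 2.99 for the run on chromosome 1, 2.11 for that on chromosome 15 and 2.63 for that on chromosome 13. Runs of 13 peaks each lay on chromosome 13 from 12408010 and on chromosome 17 from 43925590. The runs were chosen after their values were seen and are described without a test.

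**Figure D3:**
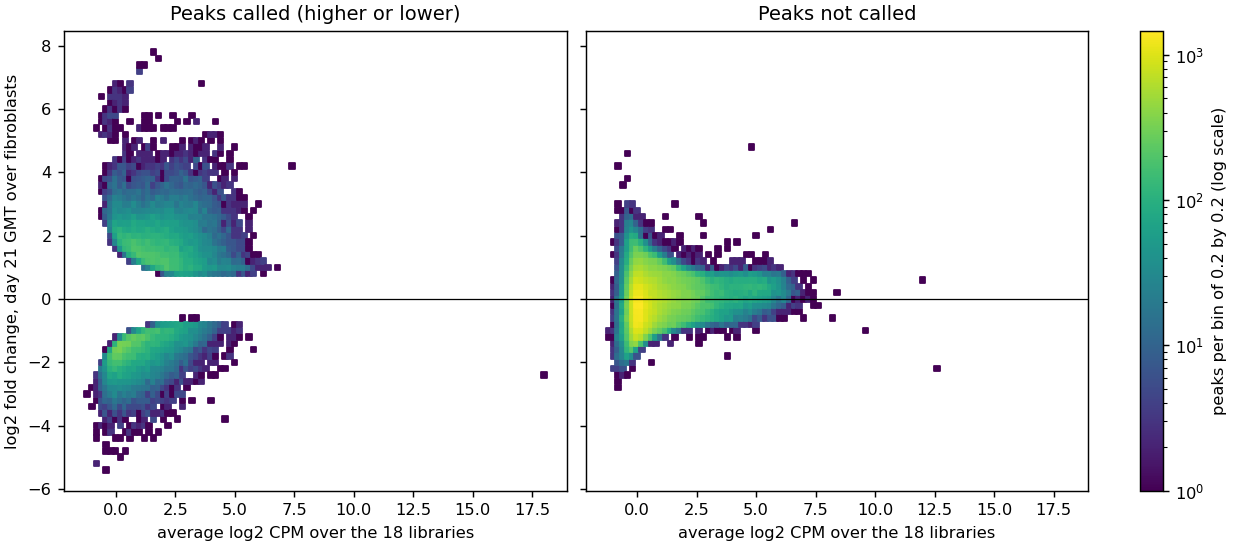
Log2 fold change of day 21 GMT cells over fibroblasts against average log2 CPM, for peaks called (left) and not called (right), as the number of peaks per bin on a log colour scale. The called rises reach a log2 fold change of 7.78 and the called falls -5.46, on a level axis that averages 15 GMT and 3 fibroblast libraries, so that a peak open in GMT cells sits further right; the lone bin at the far right of the left panel is the region of chromosome 1 with most counts.

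The balance of rises and falls by level depends on how the level is set. With the average over all 18 libraries, of which 15 are GMT, a peak open in GMT cells is put in a high class and one open in fibroblasts in a low class by the change itself. Rises then made up 23.0, 38.7, 58.0, 71.4 and 83.3% of calls in 5 classes of increasing level, a climb that this construction favours. With day 21 and fibroblasts weighted equally, a measure chosen after seeing the data, rises made up 81.6, 49.0, 52.8, 57.5 and 64.9% of calls. Among peaks with a log2 CPM under 0 on that measure, 6.37% were higher and 1.43% lower, in a class that peaks could reach through any of the 15 GMT libraries. At 3 or more, 19.9% were higher and 10.8% lower. The share called in either direction was 7.80% in the lowest class and 44.4% between 2 and 3, so calls were most frequent at middle to high levels.

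A normalization fitted over the 18-library level, also chosen after seeing the data, called 17187 peaks higher and 17011 lower. Of the peaks called with TMM, 83.1% of the higher and 91.1% of the lower were called in the same direction with it.

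**Figure D4:**
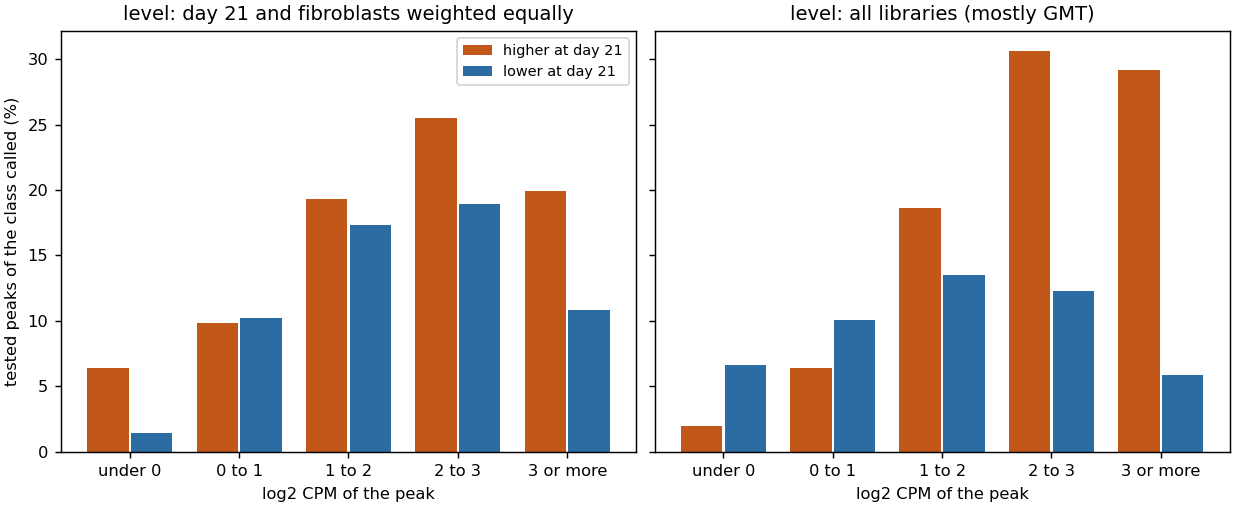
Share of tested peaks called higher (left bar of each pair) and lower (right bar) at day 21, in 5 classes of log2 CPM, with the level taken from day 21 and fibroblasts weighted equally (left panel) or from all 18 libraries (right panel). The climb of rises over falls through all 5 classes of the right panel is broken in the left one. There rises are 81.6% of calls in the lowest class, 49.0% in the next and, climbing again, 64.9% in the highest.

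Wide peaks were called more often but changed less. The 8679 peaks of 3000 bases or more had 16.2% higher and 11.8% lower, with median log2 fold changes of 1.29 and -1.17 among the calls. The 4225 peaks under 500 bases had 15.5% higher and 5.28% lower, with medians of 2.40 and -1.92. At a log2 CPM between 1 and 2, with both groups weighted equally, rises made up 53.9% of calls under 500 bases, 50.1% from 1000 bases up to 2000 and 58.5% at 3000 bases or more. Set by the 18-library average instead, these shares were 85.8, 62.0 and 24.8%, so the balance by width at a given level also depends on that choice. At that level the widest peaks were called less often, not more. In the same classes 33, 41.5 and 21% were called with equal weights, and 36.1, 35.4 and 20.3% with the 18-library average.

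Chromosomes differed in the balance of rises and falls with TMM, the only scaling under which this was counted. On chromosome 1, 2936 of 24704 peaks were higher and 2941 lower, an even split. On chromosomes 11 and 17 rises made up 64.2% of calls, with 3006 higher and 1674 lower on chromosome 11 and 1604 higher and 893 lower on the part of chromosome 17 in the table. The share of peaks called at all stayed between 21.8 and 24.5% on the 9 chromosomes. How many tested peaks a 100 kb window held also went with the split: rises were 36.8% of calls in windows with 1 to 9 tested peaks, 52.1% with 10 to 19, 67.3% with 20 to 29 and 73.1% with 30 or more. Median fibroblast levels in these classes were 1.22, 1.49, 1.72 and 1.83 CPM, so the level moved with the number of peaks, and which peaks were tested rests mostly on GMT libraries.

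The named peaks were also followed through the earlier GMT libraries, to see whether the day 21 level was reached earlier. All times are set against the same fibroblasts, so their levels are given side by side only. G1 had 12.6 ± 2.21 CPM in fibroblasts, 113 ± 34.8 at day 2, 159 ± 64.9 at day 3, 261 ± 17.7 at day 7, 190 ± 64.0 at day 14 and 222 ± 58.4 at day 21 (SD, n = 3). G4 had 7.47 ± 1.68 CPM in fibroblasts, 28.1 ± 13.2 at day 2, 27.5 ± 11.6 at day 3, 61.4 ± 12.4 at day 7, 56.0 ± 16.5 at day 14 and 62.6 ± 9.90 at day 21. At both, the means of days 7 and 21 differed by less than the SD at day 21.

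Day 21 was then tested against day 2 directly, a contrast without fibroblasts, in which 1.44% of all peaks were called. It called 3 of the 30 named peaks. R6 went up over the time course, with 1.91 ± 0.800 CPM at day 2, 3.16 ± 0.908 at day 3, 6.68 ± 2.82 at day 7, 8.38 ± 1.86 at day 14 and 10.4 ± 0.263 at day 21 (day 21 over day 2, log2 fold change 2.44 with SE 0.34, edgeR adjusted p 6.81e-06). R7 was most open early, at 4.02 ± 1.60, 4.18 ± 0.974, 2.38 ± 1.30, 1.34 ± 0.708 and 0.771 ± 0.638 CPM on the same days (-2.29, SE 0.47, adjusted p 0.00337), and so stood lowest at day 21 though still listed among the rises over fibroblasts. L2 went on closing, at 19.3 ± 2.49, 17.9 ± 8.68, 11.2 ± 2.57, 7.86 ± 2.00 and 5.83 ± 0.789 CPM (-1.70, SE 0.33, adjusted p 0.0015). The other 27 did not pass the test. This contrast was not run under the alternatives, and day 2 replicate 1 stands apart from its group.

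**Figure D5:**
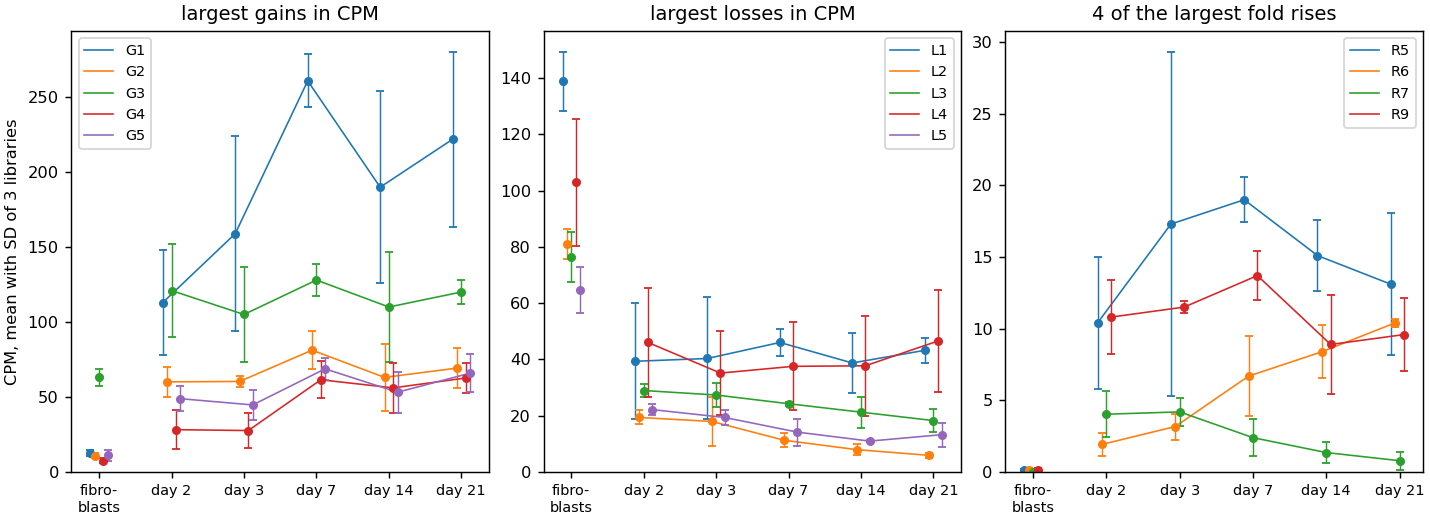
Mean CPM with SD over 3 libraries in fibroblasts and in GMT cells with inhibitors at days 2, 3, 7, 14 and 21 (evenly spaced on the axis), for the 5 largest gains, the 5 largest losses and 4 of the largest fold rises, which were picked after their values were seen. Most levels at day 2 are already far from those of fibroblasts, while R6 climbs and R7 and L2 decline up to day 21.

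Since the fibroblasts were harvested at day 7, the day 21 cells were also set against GMT cells of that day. No peak was higher and 8 were lower at day 21, 0.00552% of those tested, with 8167 of 144810 at an unadjusted p under 0.05. Some peaks fall under that p also where nothing differs, so the 8167 are no count of missed differences. The 8 were chosen by their call alone. One on chromosome 10 at 75370237 to 75371476 was a rise over fibroblasts that had partly come down, with 7.02, 4.31 and 7.20 CPM at day 21, 15.7, 13.2 and 24.0 CPM at day 7 and 0.274, 0.463 and 0 CPM in fibroblasts. Another, on chromosome 11 at 118157302 to 118161732, was below fibroblasts, with 6.13, 4.46 and 5.90 CPM at day 21, 35.2, 6.40 and 15.2 CPM at day 7 and 24.3, 28.0 and 19.8 CPM in fibroblasts. The day 7 libraries differed widely there. One more, on chromosome 12 at 17009526 to 17010742, had come near the fibroblast level by day 21, with 1.78, 1.85 and 1.10 CPM at day 21, 6.60, 3.08 and 7.66 CPM at day 7 and 2.65, 1.39 and 1.08 CPM in fibroblasts. The largest of the adjusted p-values was 0.0438, and the count became 0 without day 7 replicate 1 or 3 or day 21 replicate 1 or 2, 1 without day 21 replicate 3, 18 without day 7 replicate 2, 14 with DESeq2, and 337 without day 2 replicate 1, day 3 replicate 1 and day 14 replicate 3, which stand apart from their groups.

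Against day 14, 0% of peaks were called, by edgeR or by DESeq2. In edgeR 4757 had an unadjusted p under 0.05, which is no count of missed differences either. At this depth the absence of calls does not show that the 2 days were alike. None of the 30 named peaks passed against day 7 or day 14.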

How the data were processed

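ATAC-seq libraries of day 21 GMT cells and fibroblasts were compared. The authors deposited raw whole-number counts of reads per region. The submitters' processing notes name build mm9 and, with no version, edgeR, MACS2, Picard and Bowtie2; settings, and any pooling of libraries before peak calling, are not given in the sources used. The last of 1393121 lines was incomplete and left out.

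All 18 libraries with a column (2.29 to 23.2 M counts) entered 1 fit of 6 groups in edgeR 4.0.16 (R 4.3.3), with filterByExpr (minimum count 10, minimum total 15), TMM scaling, robust glmQLFit with 12 residual degrees of freedom and glmQLFTest. The common biological coefficient of variation was 23.8%. Peaks and windows were called at a Benjamini-Hochberg adjusted p under 0.05. An SE is the size of the log2 fold change divided by the square root of F. Windows used the scaling of the peaks. The procedure was also run on simulated counts in which few features were changed. That run does not show how the scaling behaves where many peaks change, nor does it test the balance of rises and falls. Intervals and floors cover counting error alone, as PCR copies of a molecule could not be told apart by identifiers.

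Named peaks were the 10 largest fold rises and falls and the 5 largest gains and losses in mean CPM among called peaks whose groups did not overlap and whose average log2 CPM was at least 1, with 1 per 100 kb window and list. Named windows were the 5 called ones with most peaks called in each direction. These rules, and the comparison itself, were chosen with earlier results of these data known. Gene lists and sequence motifs were not run, since no mm9 annotation or sequence was used here. Alternatives were other scalings, thresholds and filters, DESeq2 1.42.0, voom in limma 3.58.1, the replicate number as a block, and fits leaving out libraries.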

Additional observations from a re-analysis of the deposited data

How the results depend on the processing

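Main counts were 19209 higher and 14614 lower peaks. At an adjusted p under 0.01 they were 12577 and 8921, against a fold of 2 5902 and 3328, and with library totals alone 36847 and 4639. With peaks averaging a log2 CPM of 1 or more scaled anew and fitted alone, 11907 were higher. With no filter on low counts 2007 were lower. The other settings stayed within 1.5 times the main counts; DESeq2 gave 15312 and 12846, and voom, with 16772 and 17695, turned the balance. Leaving out 1 library gave 12466 to 18023 higher and 9677 to 12175 lower peaks, the lowest without fibroblast replicate 1.

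Against day 7 the 8 calls became 0 with library totals and with no filter, 337 without the 3 libraries that stand apart, 14 with DESeq2 and 5 with the normalization over level, and 0 to 18 when 1 library was left out; against day 14 they stayed at 0. Windows numbered 2884 higher and 13 lower with library totals and 2523 and 4419 at 50 kb, and leaving out 1 library gave 671 to 1489 higher and 668 to 3303 lower, with 3303 lower without fibroblast replicate 3. The causes were not tested.

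Same-numbered libraries of both groups did not deviate together (r = -0.02, 0 and 0.04). Many peaks hold few counts, so a shared culture or batch may go unseen, and pairing by replicate number is not excluded. With the replicate block 18824 peaks were higher and 13850 lower, 9 were called against day 7 and 0 against day 14, and 1381 windows were higher and 2055 lower. Over named peaks and alternatives, 576 values kept direction and call and 24 lost the call. For windows these were 100 and 10, and none reversed in either. Named peaks and windows were chosen from calls on the same counts, so the kept values are no independent support. Alternatives chosen after seeing the data were the normalization over level, totals without the single region (18688 and 14727), fibroblast replicates 1 and 2 summed (16166 and 11807), TMM of the windows, and a level with both groups weighted equally. The shallowest library, fibroblast replicate 3, had a count in 91.4% of peaks, against at least 96.9% in the other five.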

Other observations

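A peak on chromosome 12, at 106762585 to 106763228, had the largest fold change among well covered peaks that were not called, and was picked after its values were seen. It had 4.90, 4.92 and 44.4 CPM at day 21 and 0.730, 0.463 and 0.721 CPM in fibroblasts (log2 fold change 4.80 with SE 1.65, edgeR adjusted p 0.0535). All 3 day 21 libraries lay above all fibroblast libraries, but replicate 3 stood far above the other two.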
